A study of Ostreococcus tauri with 84 samples.

Results

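ADS1 (ostta01g00790) is annotated as a fatty acid desaturase of type 1 in the picoeukaryotic green alga Ostreococcus tauri, and the study calls it an acyl-lipid desaturase. It was taken as 1 gene of the 7668 in the tables, by its row in both tables of expression values. Desaturases put double bonds into fatty acid chains. The membrane-bound ones act on chains already attached to a lipid or to coenzyme A, take electrons from ferredoxin or cytochrome b5, and help set the fluidity of chloroplast and other membranes. Marine green algae such as Ostreococcus are rich in polyunsaturated fatty acids, and fatty acid synthesis in the chloroplast depends on the reducing power that photosynthesis supplies by day.

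Cells of strain RCC4221 grew in photochemostats at a constant temperature and pH, and 84 RNA libraries were taken at 6 time points, 4 h apart. The 6 light regimes were constant darkness after short days (DD after SD), constant darkness after long days (DD after LD), constant light after short days (LL after SD), constant light after long days (LL after LD), short days (SD, lit for 8 h and dark for 16 h) and long days (LD, lit for 16 h and dark for 8 h). Each diel regime gave 18 libraries, 3 per time point (sample numbers 1 to 3), and each constant regime gave 12, 2 per time point (numbers 4 and 5 in LL, 6 and 7 in DD). Times are hours after lights on (ZT) or after subjective dawn (CT), and the constant regimes were sampled after a day of acclimation. Fresh medium was added in the light hours, so the dilution rate was lower in SD than in LD, and the effect of photoperiod cannot be told apart from that of the culture or its dilution. The study's methods describe the samples of a regime as taken on consecutive days, while the labels give only their numbers. No p-value therefore measures the spread between separate cultures. Those for differences of level measure the spread between sample numbers at a time point. Those of a fitted daily cosine also take in its misfit to the daily course, and those of the rank test come from permuted ranks.

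Expression values are FPKM, that is fragments of a gene relative to transcript length and to sequencing depth, so a change of ADS1 per cell cannot be told apart from a change in the cell's total RNA. Mapped reads per library, estimated from the steps between the lowest values, ranged from 510000 to 14230000 with a median of 8400000. ADS1 then rested on an estimated 13 to 1210 reads, with a median of 446.5. The shallowest library was sample number 3 of LD at ZT0, with 13 ADS1 reads and a counting error of 27.7% of the value. In all other regimes the counting error of ADS1 stayed at or below 11.5%.

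ADS1 transcripts were most abundant late in the night in SD and in the middle of the light period in LD. At ZT20 the level was 93.7, 81.9 and 87.7 FPKM in SD, against 28.3, 27.0 and 15.5 FPKM in LD. At ZT0, just after lights on, it was 64.8, 66.4 and 69.2 FPKM in SD, against 38.1, 33.6 and 21.8 FPKM in LD. Both times fall at the end of the night or at dawn, and every SD library was above every LD library. At ZT4 the order was turned round, with 59.5, 59.8 and 43.4 FPKM in SD, against 165.3, 136.6 and 127.6 FPKM in LD. At ZT8 the level was 49.2, 35.8 and 25.9 FPKM in SD, where the lights had just gone off, against 131.8, 121.2 and 158.4 FPKM in LD, where they were still on. All SD libraries lay below all LD libraries at both of these times. At ZT12 SD had 32.4, 28.0 and 39.3 FPKM, against 43.2, 44.8 and 44.5 FPKM in LD. At ZT16 SD had 55.1, 55.3 and 67.9 FPKM, against 34.9, 34.6 and 28.2 FPKM in LD. The groups did not overlap at any of the 6 time points, and SD was higher at 3 of them (ZT16, ZT20 and ZT0) and lower at the other 3.

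**Figure D1:**
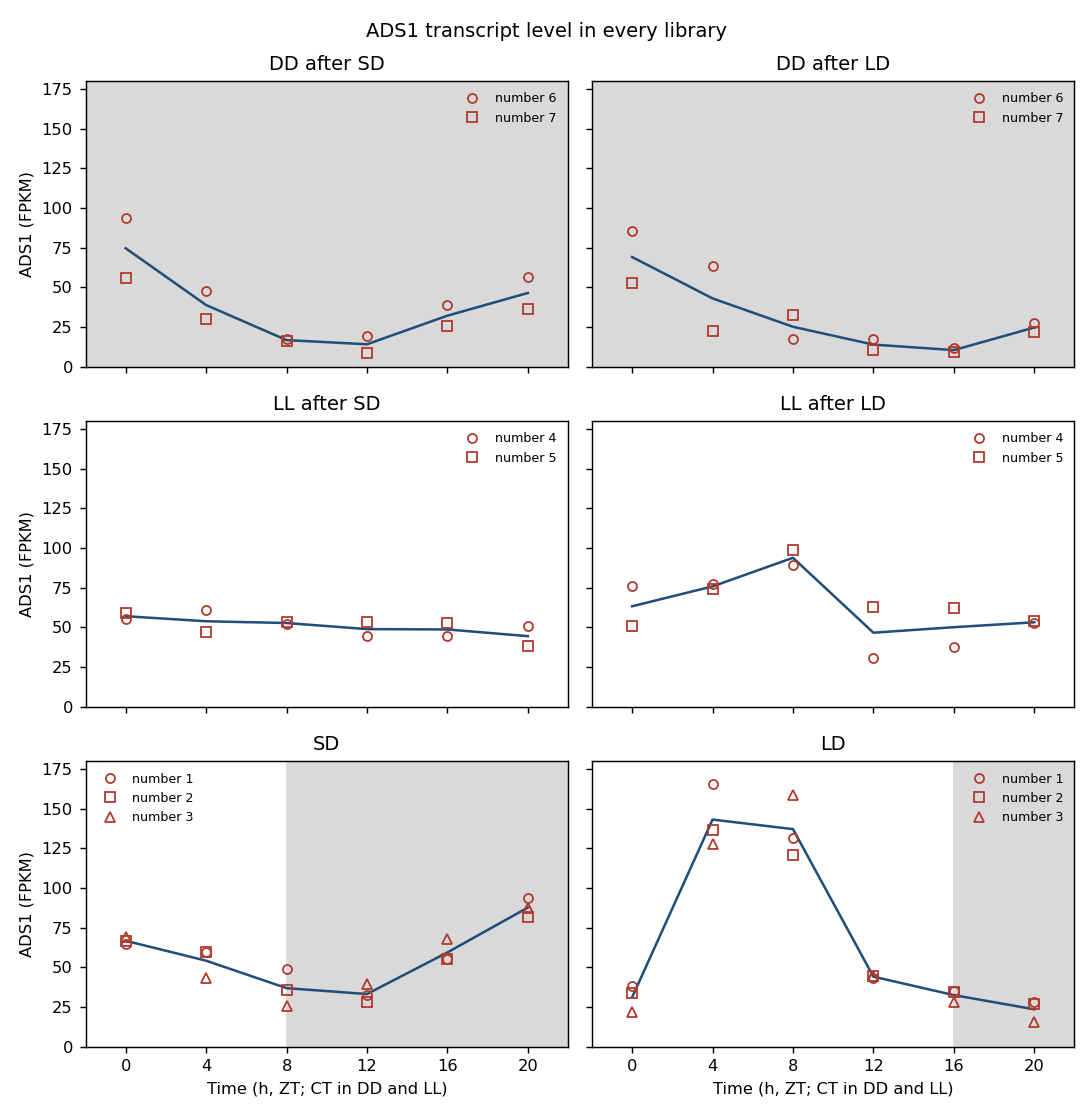
ADS1 level (FPKM) against time (h) in each of the 84 libraries, with a panel per light regime, the sample numbers as symbols and the mean as a line. Grey marks darkness. The highest mean stands at ZT20 in SD (87.7 FPKM) and ZT4 in LD (143.2 FPKM), at CT0 in both DD regimes, and LL after SD is nearly flat.

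The course through the day ran in nearly opposite directions in the photoperiods. In SD the mean was 33.2 ± 5.72 FPKM at ZT12, increased through the dark to 87.7 ± 5.90 FPKM at ZT20 (SD, n = 3 each), and was already lower when the lights came on and lower again at ZT4 and ZT8. The highest mean was 2.64 times the lowest. In LD the mean was 31.2 ± 8.41 FPKM at ZT0 and 143.2 ± 19.7 FPKM at ZT4, a 4.59-fold level, stayed near that level at ZT8 with overlapping libraries, and was 44.2 ± 0.834 FPKM at ZT12 with the lights still on. The lowest LD mean was 23.6 ± 7.06 FPKM at ZT20, and the highest was 6.06 times that. Each sample number gave the same picture, with the highest sample at ZT20 for all 3 numbers in SD and at ZT4, ZT4 and ZT8 in LD.

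At 5 of the 6 time points the difference between SD and LD passed the test, limma on log2(FPKM + 1) with Benjamini-Hochberg adjustment over all genes. Since the study shows ADS1 as an example of a gene whose daily profile differs between photoperiods, these tests are not independent evidence. ADS1 was higher in SD at ZT20, by 1.89 ± 0.294 (log2 difference ± SE, adjusted p = 7.7e-07), where 13% of all genes were called higher. It was also higher at ZT0, by 1.11 ± 0.294 (adjusted p = 0.0016, 23.5% of genes called higher), and at ZT16, by 0.85 ± 0.294 (adjusted p = 0.0194, 15.5% of genes called higher). The ZT16 difference was no longer called without sample number 3 of LD (0.75, adjusted p = 0.060) or without number 3 of SD (0.75, adjusted p = 0.0816). The direction was opposite at ZT8, just after lights off in SD and in the light in LD, with a difference of -1.90 ± 0.294 (adjusted p = 9.7e-07). There 6.25% of genes were called lower and the median gene stood at 0.43. At ZT4, in the light in both, the ADS1 difference was -1.39 ± 0.294 (adjusted p = 1.5e-04, 22.2% of genes called lower). At ZT12 the difference of -0.41 ± 0.294 did not pass (adjusted p = 0.306, 8.16% of genes called lower), although the libraries did not overlap. The SD minus LD difference varied with time of day (F = 26.1, adjusted p = 5.4e-12), as it did for 67.4% of all genes. When libraries were scaled to their upper quartile the calls for ADS1 stayed, while the share of higher calls among all called genes went to 53.8% against 40.2% at ZT4, to 61.2% against 73.5% at ZT12, and to 48.9% against 38.3% at ZT20.

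**Figure D2:**
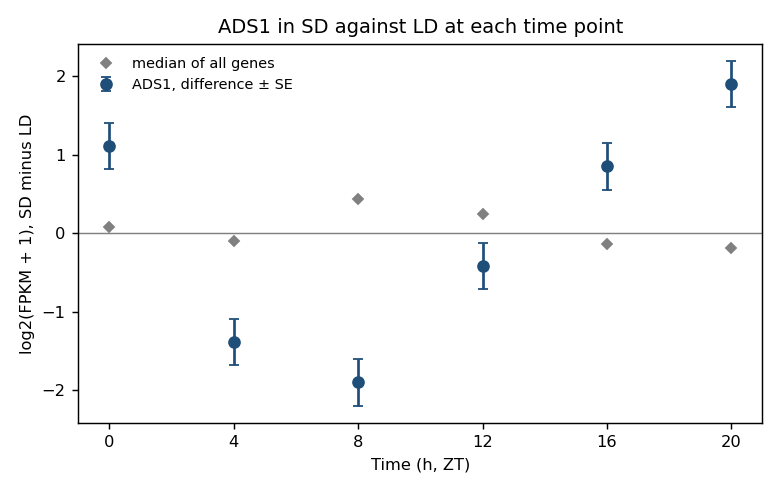
Difference of ADS1 between SD and LD in log2(FPKM + 1) at each time point (h, ZT), as circles with the standard error of the limma fit, and the median over all 7668 genes as diamonds. ADS1 runs between -1.90 at ZT8 and 1.89 at ZT20, while the medians stay between -0.19 and 0.43.

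Averaged over the 6 time points, ADS1 did not differ detectably between photoperiods. The mean over all libraries was 56.4 FPKM in SD and 68.6 FPKM in LD, with means per sample number of 54.5 to 59.1 FPKM in SD and 66.0 to 73.6 FPKM in LD. On the log scale the difference was 0.02 ± 0.120 (adjusted p = 0.888), where 27.5% of all genes were called higher in SD and 18.9% lower. The means in FPKM and in log2 differ in order because the high LD samples weigh more in FPKM.

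A rank test for a 24 h rhythm, built after the RAIN method and assessed against permuted ranks, called ADS1 rhythmic in SD (adjusted p = 1.0e-04) and in LD (adjusted p = 1.1e-04). Many genes were: 51.4% of all genes in SD and 69.7% in LD. No 12 h rhythm was called for ADS1, with an adjusted p of 0.951 in SD, where 4.21% of genes were called, and of 1 in LD, where no gene was called although 209 had an unadjusted p under 0.05. A fitted cosine placed the peak at 21.3 ± 0.466 h in SD and at 6.28 ± 0.522 h in LD (± SE). The peak was thus 9.0 ± 0.70 h earlier in SD (adjusted p = 5.3e-36), a kind of difference called for 59.9% of genes. The amplitude, the distance from mean to peak, was 24.8 ± 3.02 FPKM in SD and 64.9 ± 8.87 FPKM in LD, and fell by 40.1 ± 9.37 FPKM (adjusted p = 3.6e-04), with 25.3% of genes called in either direction. The study shows ADS1 as an example of changed peak time and amplitude, so the tests of these are not independent evidence either.

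A peak earlier in SD was common among genes rhythmic in both photoperiods, and that of ADS1 lay toward the far end. Over the 3122 such genes the median shift was -6.16 h, and 9.74% of them moved at least as far forward as ADS1. Among the 220 whose LD peak fell within 2 h of that of ADS1, the median shift was -6.44 h, with quartiles of -8.08 and -4.10 h. Of those, 91 (41.4%) shifted to within 2 h of the shift of ADS1, and 35 (15.9%) came forward by as much or more. These shares are descriptions.

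In constant light the daily swing of ADS1 was small. After SD the 12 libraries lay between 38.3 and 60.9 FPKM, with 55.0 and 59.1 FPKM at CT0 and 50.7 and 38.3 FPKM at CT20, and the highest mean was 1.28 times the lowest. After LD they lay between 30.7 and 98.6 FPKM, with 89.1 and 98.6 FPKM at CT8 as the highest pair and 30.7 and 62.6 FPKM at CT12 as the lowest. Only the CT8 pair after LD stood clear of the next time point in order of level, and at CT0 (75.8 and 50.8 FPKM), CT12 and CT16 the 2 libraries differed widely. The rank test called no rhythm for ADS1, with an adjusted p of 0.853 after SD and 0.244 after LD. It called no gene in either regime, although 745 genes after SD and 1694 after LD had an unadjusted p under 0.05, and limma called 20 genes (0.261%) after SD and 0 after LD. The amplitude was 4.45 ± 2.50 FPKM in LL after SD, a fall by 20.3 ± 3.92 FPKM from SD (adjusted p = 7.6e-06, 27.1% of genes called). It was 19.4 ± 6.39 FPKM in LL after LD, a fall by 45.5 ± 10.9 FPKM from LD (adjusted p = 2.7e-04, 42.8% of genes called). Both amplitude differences in constant light were tested after the data were seen.

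In constant darkness ADS1 kept a wide daily swing, highest at CT0 after either photoperiod. After SD the level was 93.5 and 55.7 FPKM at CT0, 47.8 and 29.9 FPKM at CT4, 17.4 and 16.2 FPKM at CT8, 19.3 and 8.90 FPKM at CT12, 38.8 and 25.5 FPKM at CT16, and 56.4 and 36.5 FPKM at CT20. After LD it was 85.4 and 52.8 FPKM at CT0, 63.6 and 22.4 FPKM at CT4, 17.6 and 32.7 FPKM at CT8, 17.2 and 10.6 FPKM at CT12, 11.7 and 9.23 FPKM at CT16, and 27.3 and 22.1 FPKM at CT20. The highest mean was 5.28 times the lowest after SD and 6.61 times after LD. At CT16 and CT20 both libraries after SD were above both after LD, at CT8 both were below both after LD, and at CT0, CT4 and CT12 the groups overlapped. Sample number 7 was below number 6 at 11 of 12 time points.

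The rhythm in darkness was called after SD (adjusted p = 0.0240, 37.4% of genes called) and missed the threshold after LD (adjusted p = 0.0527), where the rank test called no gene, although 2709 had an unadjusted p under 0.05 and limma called 2311 (30.1%), against 50.8% of genes by limma after SD. With the sample number as a block, the adjusted p was 0.0063 after SD and 0.0147 after LD, with 53.4% and 44.7% of genes called. The cosine peak stood at 23.1 ± 0.804 h after SD and at 1.46 ± 0.989 h after LD. The fitted peaks were thus 2.41 ± 1.27 h apart in darkness, earlier after SD, a difference that did not pass (adjusted p = 0.0969, 52.6% of genes called). It was called with the block (adjusted p = 0.0489) and on log2 values (adjusted p = 0.0086). In the diel cycles the peaks were 9.0 h apart, and whether the gap differed between diel cycles and darkness was not tested. Compared with the diel cycle before it, the peak in DD was 1.77 ± 0.929 h later after SD (adjusted p = 0.140, 31.5% of genes called) and moved by -4.83 ± 1.12 h, that is earlier, after LD (adjusted p = 2.8e-04, 27.6% of genes called). The amplitude was 27.1 ± 5.69 FPKM in DD after SD, a difference of 2.27 ± 6.45 FPKM from SD (adjusted p = 0.863, 16.7% of genes called). It was 25.6 ± 6.63 FPKM in DD after LD, a fall by 39.3 ± 11.1 FPKM from LD (adjusted p = 0.0029, 26% of genes called). On the log2 scale that last difference was -0.20 (adjusted p = 0.637), so it was called in FPKM but not as a ratio. These comparisons of amplitude and peak time that involve DD were added after the data were seen.

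**Figure D3:**
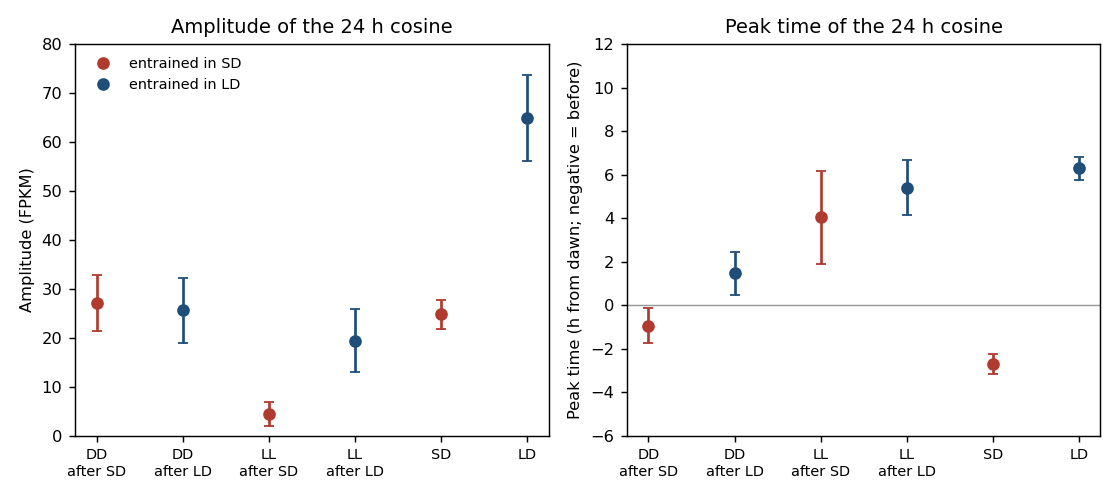
Amplitude (FPKM, left) and peak time (h from dawn, negative before dawn, right) of the 24 h cosine fitted to ADS1 in each light regime, with standard errors, red for cultures entrained in SD and blue in LD. The peak times are 9.0 h apart between SD and LD and 2.41 h apart in DD, and the amplitude is largest in LD (64.9 FPKM). The rank test called no rhythm in LL or in DD after LD (adjusted p = 0.0527), so their peak times are not those of a called rhythm. The difference of cosine peak times in DD did not pass (adjusted p = 0.0969).

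The mean level of ADS1 was lower in constant darkness than in every other regime. It averaged 37.2 FPKM in DD after SD, 31.1 FPKM in DD after LD, 51.0 FPKM in LL after SD and 63.8 FPKM in LL after LD. DD libraries come from a separate table, so comparisons with them join tables. The study's methods add fresh medium in the light period and keep LL at the maximum irradiance. Dilution and light dose may therefore differ between DD, LL and the diel cycles too, and cannot be told apart from the regime. After SD the log2 difference was -0.69 ± 0.147 between DD and LL (adjusted p = 5.9e-05) and -0.75 ± 0.134 between DD and SD (adjusted p = 3.5e-06), with 43% and 38.7% of all genes called lower. After LD it was -1.27 ± 0.147 between DD and LL (adjusted p = 1.3e-10) and -1.05 ± 0.134 between DD and LD (adjusted p = 2.4e-09), with 36.9% and 30.1% of genes called lower. The lower level was not uniform over the day: at CT0 the DD and LL libraries overlapped after both photoperiods, and both libraries of DD after LD at CT0 were above all 3 LD libraries at ZT0. From CT8 to CT16 both DD libraries were below both LL libraries after SD, and from CT4 to CT20 after LD.

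Many genes were lower in darkness, and scaling affected how many. The median gene differed by -0.24 between DD and LL after SD and by -0.11 after LD, and scaling to the upper quartile moved these medians by 0.19 and 0.12. With that scaling ADS1 was at -0.48 ± 0.140 after SD (adjusted p = 0.0024) and -1.14 ± 0.140 after LD (adjusted p = 6.8e-10), against medians of -0.06 and 0.01, and the share of higher calls after SD went to 44.8% against 32.5%. The difference between DD and LL after SD was not called without sample number 7 of DD after SD (-0.38, adjusted p = 0.0607). The difference after SD was less negative than that after LD, by 0.58 ± 0.208 (adjusted p = 0.0448, 5.59% of genes called in that direction), a test added after the data were seen. Leaving out 1 sample number of a regime at a time gave 0.27 to 0.89, and the call was lost in 5 of 8 cases: without number 6 of DD after SD (0.27, adjusted p = 0.387), number 7 of DD after LD (0.37, adjusted p = 0.188), number 5 of LL after LD (0.48, adjusted p = 0.151), number 4 of LL after SD (0.59, adjusted p = 0.130) or number 5 of LL after SD (0.57, adjusted p = 0.111). The highest value came without number 7 of DD after SD (0.89, adjusted p = 0.0030).

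The remaining comparisons of level did not pass. LL minus SD was -0.06 ± 0.134 (adjusted p = 0.753, 10.9% of genes called lower) and LL minus LD 0.22 ± 0.134 (adjusted p = 0.237, 20.9% called higher). LL after SD minus LL after LD was -0.26 ± 0.147 (adjusted p = 0.188, 12.8% called lower), and DD after SD minus DD after LD was 0.32 ± 0.147 (adjusted p = 0.145, 3% called higher). The last was called without sample number 6 of DD after LD (0.53, adjusted p = 0.0355) and without number 7 of DD after SD (0.63, adjusted p = 0.0071). Upper-quartile scaling left these 4 uncalled, with 55.1% against 67.4% of calls higher for LL minus SD and 40.1% against 28.5% for DD after SD minus DD after LD.

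**Figure D4:**
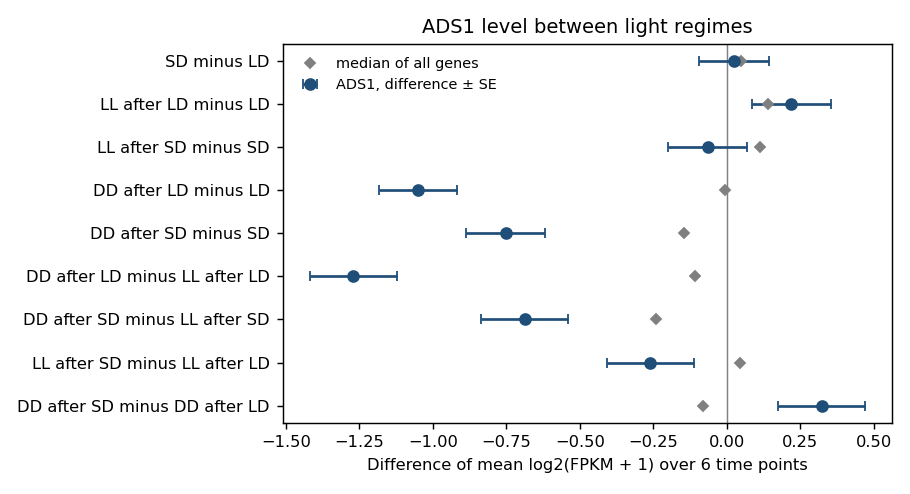
Differences of mean log2(FPKM + 1) of ADS1 over the 6 time points between light regimes, as circles with the standard error of the limma fit, and the median of all genes as diamonds. The 4 comparisons of DD with LL or a diel cycle lie between -1.27 and -0.69, and the other 5 between -0.26 and 0.32.

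ADS1 belongs to 7 genes annotated as fatty acid desaturases, and by FPKM, which divides by length, it was a minor one, at 0.641% to 1.79% of their summed level depending on the regime. Its mean over all libraries was 52.9 FPKM, above ostta12g01890 (13.7 FPKM) and below ostta17g01930 (175.5 FPKM), ostta02g05510 (217.0 FPKM), ostta17g02010 (709.1 FPKM), ostta03g03040 (709.4 FPKM) and ostta04g03510 (2183 FPKM). The last is annotated as type 2, the soluble class of desaturases that act on chains bound to acyl carrier protein, and the other 6 as type 1, the membrane-bound class. All 7 were called rhythmic in LD and 3 in SD (ADS1, ostta17g01930 and ostta17g02010), against 69.7% and 51.4% of all genes. The 7 were found through the study's own sets of rhythmic genes, so their rhythm counts are descriptions only. In darkness 3 were called after SD, where 37.4% of all genes were, and with limma 5 after SD and 5 after LD, where 50.8% and 30.1% of all genes were.

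The desaturase most like ADS1 was ostta17g01930, with a correlation of 0.89 over the 36 means of regime and time. Its highest mean stood at ZT20 in SD (222.4 ± 10.4 FPKM) and at ZT8 in LD (330.9 ± 30.0 FPKM), and its fitted peak was at 20.5 h in SD and 5.46 h in LD, a shift of -8.95 ± 1.00 h (adjusted p = 5.3e-18). In darkness it too was highest within 4 h of dawn, with peaks at 21.04 h after SD and 1.01 h after LD. Like ADS1, ostta17g02010 peaked late in the SD night (22.6 h) and in the LD day (5.84 h), a shift of -7.19 ± 0.957 h (adjusted p = 4.2e-13). These 3 desaturases were highest at ZT20 in SD.

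The other type 1 genes had different courses in SD. For ostta03g03040 the mean was highest at ZT4 in both photoperiods, with 1558 ± 121 FPKM in SD and 2606 ± 458 FPKM in LD, and SD had a further high stretch at ZT16 and ZT20 (1103 and 1220 FPKM), when LD was at 152.2 and 88.4 FPKM. Likewise ostta02g05510 was highest at ZT4, with 353.3 ± 26.8 FPKM in SD and 441.1 ± 69.2 FPKM in LD. In contrast, ostta12g01890 was lowest at ZT4, with 2.44 ± 2.12 FPKM in SD and 0.678 ± 0.634 FPKM in LD, and highest at the sample just after lights off, ZT8 in SD (26.5 ± 3.09 FPKM) and ZT16 in LD (38.6 ± 9.24 FPKM). The type 2 gene ostta04g03510 was also lowest at ZT4, with 685.6 ± 48.5 FPKM in SD and 1363 ± 114 FPKM in LD.

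**Figure D5:**
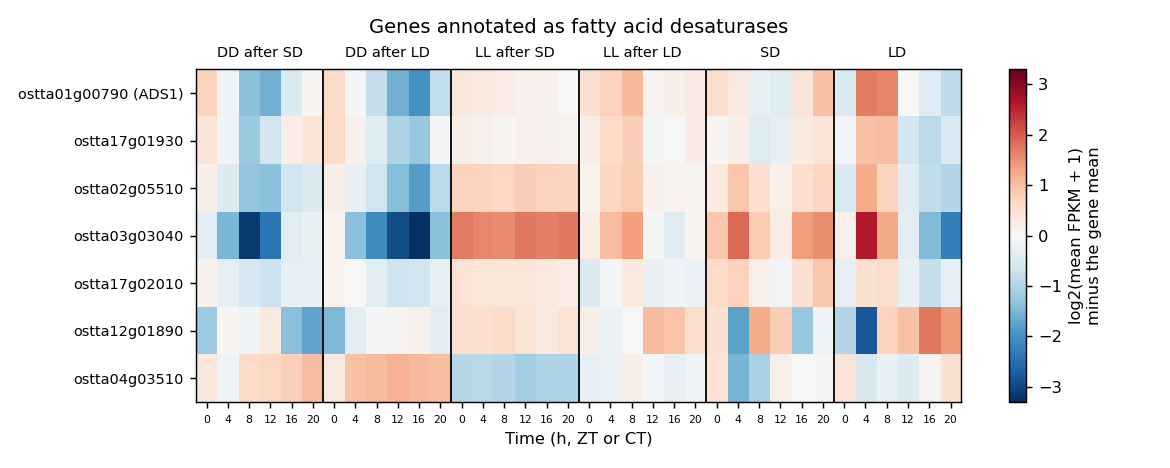
Level of the 7 genes annotated as fatty acid desaturases at each time point (h) of each light regime, as log2(mean FPKM + 1) minus the mean of the gene over the 36 points, with red above and blue below that mean, ordered by their correlation with ADS1. ADS1 ranges between -1.97 (DD after LD, CT16) and 1.68 (LD, ZT4), and ostta04g03510 is high in DD where most type 1 genes are low.

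Most desaturases were lower in darkness. Between DD and LL after SD, 6 of 7 were called lower and 1 higher, where 43% of all genes were called lower and 20.7% higher, with a median log2 difference of -0.70 against -0.24 over all genes. After LD 5 were called lower and 1 higher, against 36.9% and 26.2% of all genes, with a median of -0.78 against -0.11. The most strongly lowered was ostta03g03040, by -3.04 ± 0.188 after SD (adjusted p = 4.3e-20) and -2.22 ± 0.188 after LD (adjusted p = 1.1e-14). The gene that rose was the soluble ostta04g03510, at 1.53 ± 0.135 after SD (adjusted p = 1.8e-14) and 1.08 ± 0.135 after LD (adjusted p = 1.1e-09). Between SD and LD, 3 desaturases were higher in SD, as were 27.5% of all genes, namely ostta03g03040 (1.15 ± 0.154, adjusted p = 2.0e-08), ostta02g05510 (0.67 ± 0.102, adjusted p = 3.1e-07) and ostta17g02010 (0.58 ± 0.098, adjusted p = 3.2e-06). Only ostta04g03510 was called lower (-0.30 ± 0.110, adjusted p = 0.0213, 18.9% of all genes lower), a call lost with upper-quartile scaling. ADS1, ostta17g01930 and ostta12g01890 were not called.

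Of 61 genes in 6 lists of lipid metabolism, desaturases included, 29 were rhythmic in SD and 48 in LD, where 51.4% and 69.7% of all genes were. All 6 lists were drawn from the study's sets of rhythmic genes, so a high rhythm count in any list is partly built in. In the list of electron donors, which supply desaturases and other enzymes, 14 of 25 were rhythmic in SD and 17 in LD, against the same shares of all genes. In DD relative to LL after SD 18 were called lower and 2 higher, against 43% and 20.7% of all genes, and after LD 14 lower and 2 higher, against 36.9% and 26.2%. Among its most abundant members, ferredoxin-NADP+ reductase ostta18g01250 differed by -1.39 ± 0.146 between DD and LL after SD (adjusted p = 6.2e-12) and by -1.47 ± 0.146 after LD (adjusted p = 1.6e-12). The ferredoxin ostta17g00310 was at 3305 FPKM over all libraries and differed by -0.05 ± 0.206 after SD (adjusted p = 0.833). The cytochrome b5-like ostta15g01140 differed by -1.34 ± 0.261 after SD (adjusted p = 1.3e-05) and by -0.115 ± 0.261 after LD (adjusted p = 0.720), and the ferredoxin-type ostta06g03220 by -0.995 ± 0.179 after SD (adjusted p = 3.2e-06).

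Of 5 fatty acid synthesis genes, 3 were rhythmic in SD and 3 in LD, against 51.4% and 69.7% of all genes. The beta-ketoacyl synthase ostta02g01840, of the class of enzymes that condense acyl chains, peaked at 21.3 h in SD and 4.95 h in LD, a shift of -7.61 ± 1.26 h (adjusted p = 7.6e-09). The malonyl transferase ostta09g03060 peaked at 21.1 h in SD and 4.91 h in LD, close to ADS1 in both. The dehydratase ostta03g04010 had fitted peaks at 18.4 h in SD, where no rhythm was called (adjusted p = 0.202), and at 3.28 h in LD. The acyl-ACP thioesterase ostta01g06660 was rhythmic in SD only by the test, with an adjusted p of 0.0027 in SD and 0.806 in LD, and this difference was not tested. Both elongation genes, ostta02g00200 and ostta09g02530, were rhythmic in SD and LD, with peaks at 17.1 and 15.7 h in SD and at 21.6 and 20.9 h in LD, so that they peaked by night in both.

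Of 17 genes of glycerolipid assembly, 7 were rhythmic in SD and 16 in LD, against 51.4% and 69.7% of all genes. The phosphatidic acid phosphatase-type gene ostta03g02130 moved like ADS1, peaking at 22.8 h in SD and 5.80 h in LD (shift -6.98 ± 0.786 h, adjusted p = 7.9e-18). The chloroplast glycerol-3-phosphate acyltransferase ostta02g00340, whose class adds the first acyl chain to glycerol, was higher in SD by 1.02 ± 0.106 (adjusted p = 2.6e-11) with no rhythm called in either. The glucosyltransferase ostta02g01930 was higher in SD by 1.29 ± 0.162 (adjusted p = 4.0e-09), and the acyltransferase ostta07g03340 by 1.10 ± 0.399 (adjusted p = 0.0210). Of 5 fatty acid breakdown genes, none was rhythmic in SD by the rank test, where 51.4% of all genes were, and 3 were in LD, where 69.7% were. Those 3, ostta13g01840, ostta08g00840 and ostta12g02310, are annotated as acyl-CoA dehydrogenases or oxidases, which open the beta-oxidation of fatty acids, and peaked between 16.0 and 17.5 h in LD, about opposite to ADS1. The other abundant member, ostta01g02650, was not rhythmic in either (adjusted p = 0.370 in SD and 0.340 in LD).

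The genes whose course was most like that of ADS1 over the 36 means of regime and time, among 6879 others with a mean of at least 10 FPKM, came from several pathways. The 10 most alike had Pearson correlations of 0.91 to 0.93, the next gene stood at 0.909, the median over all was -0.16, and 97 genes reached 0.8. They share libraries and the light regime, so this is a description only. The list was led by ostta13g01320 (tetratricopeptide repeat) and ostta15g00180 (NAD-dependent epimerase or dehydratase), followed by ostta08g04180 (annotated only as an unnamed product) and ostta04g02740 (P-loop nucleoside triphosphate hydrolase). Named enzymes were ostta01g02390 (porphobilinogen synthase, of tetrapyrrole synthesis), ostta03g00350 (fructose or sedoheptulose bisphosphatase, of the Calvin cycle and sugar synthesis), ostta18g01250 (ferredoxin-NADP+ reductase, the last step of photosynthetic electron transport) and ostta11g00050 (of the plastid route to isoprenoids). The others were ostta01g04490 (pyridoxal phosphate-dependent transferase) and ostta08g02100 (rhodanese-like domain). Their LD peaks lay between 5.17 and 7.70 h. In SD, 8 of them had fitted peaks between 19.5 and 23.4 h, and the other 2, ostta08g04180 and ostta01g02390, at 1.22 and 1.49 h. No rhythm was called in SD for ostta08g04180 (adjusted p = 0.0921) or ostta18g01250 (adjusted p = 0.0604), so their SD peaks are fitted values only. In the same ranking ostta17g01930 was the 18th gene and ostta02g05510 the 31st.

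The genes on either side of ADS1 in the annotation were examined because the sources used here do not say whether counting used strand. Neither followed its daily course. Before it in gene order, ostta01g00780, an FAD-binding monooxygenase, had a highest mean of 20.3 ± 2.74 FPKM at ZT12 in SD and of 25.2 ± 5.13 FPKM at ZT0 in LD, and correlated with ADS1 at -0.47. On the other side, ostta01g00800, a short-chain dehydrogenase or reductase, had its highest mean at ZT8 in SD (88.6 ± 23.5 FPKM) and at ZT12 in LD (98.5 ± 11.2 FPKM), with a correlation of 0.09. It was lower in DD than in LL, by -2.22 ± 0.161 after SD (adjusted p = 2.0e-17) and -1.65 ± 0.161 after LD (adjusted p = 9.7e-13). When ADS1 was near its LD peak at ZT4, these neighbours stood at 8.24 and 4.60 FPKM.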

How the data were processed

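RNA-seq libraries (single 75 nt reads) were checked with FastQC and mapped with HISAT2 to the v3.0 genome by the authors, who quantified genes with StringTie and Ballgown and deposited FPKM in 2 tables, with DD in its own; versions are not given in the sources used here. Groups, times and sample numbers came from the labels. Among DD values, 182 were whole numbers; 181 came closer to the rest of their gene's DD values when divided by 1000 and were so divided, none of them of ADS1. No pair of libraries was identical (0 pairs).

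The rank test counted ordered pairs for 6 troughs and peaks 8, 12 or 16 h later, against 1000000 permutations (RAIN itself was not used). Amplitude and peak time came from a least-squares 24 h cosine on FPKM, and their differences were tested by the standard errors. Levels were tested with limma 3.58.1 (R 4.3.3) on log2(FPKM + 1) over all 84 libraries, with Benjamini-Hochberg adjustment over 7668 genes and a threshold of 0.05. Fold changes on that scale understate those of low genes. Tests were checked on simulated data with independent noise in each library, so the check does not cover deviations shared by libraries of a sample number. Python 3.11.15 with numpy 2.4.6, scipy 1.17.1 and pandas 2.3.3 was used.

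ADS1 and the lists were chosen with earlier results of these data known. Lists were made from words in the gene annotations of the study's tables, which cover 6774 of 7668 genes (88.3%), so unlisted members may exist. The study presents those tables as sets of rhythmic genes from these same data. A gene outside them could not enter a list, so the lists favour rhythmic genes over the shares of all genes. The genes named are all desaturases, up to 4 of the highest mean of each other list, the genes on both sides, and the 10 most correlated with ADS1. By locus tag, 7661 genes matched a RefSeq annotation of another release, used for gene order and lengths only. Same-numbered samples deviated together between the DD cultures, with correlations of 0.325 to 0.633 over 6880 genes in all 12 pairs. They did not between SD and LD (7 of 18 pairs over 0.1) or the LL cultures (0 of 12). The block was run only as an alternative, in DD and in other regimes, and the main results carry no block. Within a regime, libraries of 1 number also deviated together across time points. The median correlations were 0.40 in DD after SD, 0.58 in DD after LD, 0.29 in LL after SD, 0.19 in LL after LD, 0.18 in SD and 0.08 in LD. The level tests took these libraries as independent, so their p can be too small. Alternatives were other pseudocounts, filters, scaling, tests, the block, means per sample number and leaving out each number.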

Additional observations from a re-analysis of the deposited data

Results flagged for a closer look

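ADS1 differed between photoperiods in opposite directions at different times of day: the F test of photoperiod by time gave 26.1 (limma, adjusted p = 5.4e-12), with SD higher at ZT16, ZT20 and ZT0 and lower at ZT4 and ZT8. The change between DD and LL also differed with the photoperiod the cells came from. It was -0.69 after SD and -1.27 after LD, and the difference of these, 0.58 ± 0.208 on the log2 scale, had an adjusted p of 0.0448. This test was added after the data were seen, and leaving out 1 sample number of a regime at a time moved it between 0.27 (without number 6 of DD after SD, adjusted p = 0.387) and 0.89 (without number 7 of DD after SD, adjusted p = 0.0030), with the call lost in 5 of 8 cases.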

How the results depend on the processing

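The rhythms of ADS1 in SD and LD, the SD minus LD differences in amplitude and peak time, the differences at ZT0, ZT4, ZT8 and ZT20, and the lower level in DD after LD kept direction and call under every alternative tried. Leaving out each sample number in turn moved the amplitude difference between -44.2 and -37.3 FPKM and the peak shift between -9.36 and -8.31 h.

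The rhythm in DD after LD (adjusted p = 0.0527) was called with limma (0.0116) and with the replicate block (0.0147), and leaving out a sample number gave 0.264 to 0.401. The rhythm in DD after SD was not called without either number (0.227 to 0.240); 1 library per time point then remained and no gene was called. On log2 values the amplitude of DD after LD minus LD was -0.20 (adjusted p = 0.637) and the peak of DD after SD minus DD after LD was -2.85 h (adjusted p = 0.0086); with the block this peak difference stayed at -2.41 h (adjusted p = 0.0489), and without each number it was -2.64 to -2.30 h.

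The level difference SD minus LD, not called, ranged from -0.068 to 0.096 without each number and was reversed without number 3 of LD (-0.068) and without number 1 of SD (-0.019). DD after SD minus LL after SD ranged from -0.998 to -0.377, DD after SD minus DD after LD from 0.012 to 0.634, and SD minus LD at ZT16 from 0.75 to 0.90. The DD minus LL difference of SD minus LD history (0.58) ranged from 0.27 to 0.89 without each number, lost its call without number 6 of DD after SD, 7 of DD after LD, 5 of LL after LD, or 4 or 5 of LL after SD, and stayed called with a pseudocount of 0.1, the filter on low genes and upper-quartile scaling (adjusted p = 0.0160 to 0.0487). With limma 5 desaturases were rhythmic in each DD regime, where 50.8% of all genes were after SD and 30.1% after LD. After LD limma called 33 of the 61 lipid genes, from lists that favour rhythmic genes. With upper-quartile scaling 0 desaturases were called lower in SD, where 17.7% of all genes were. The cause of these changes was not tested.

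Sample numbers did not pair the SD and LD or the LL samples. With the replicate block, the SD minus LD level was 0.02 (adjusted p = 0.844), and the LL comparison stayed uncalled (adjusted p = 0.0969). The level of DD after SD minus DD after LD stayed uncalled with the block too (adjusted p = 0.144). Since ranks were permuted freely across sample numbers, p of the rank test with the block can be too small. With 1 mean per regime and sample number, the 4 lower levels in DD stayed called (adjusted p = 0.0010 to 0.0236). Levels near 0 in the shallow LD libraries rest on few reads.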
